A study of Mus musculus with 34 samples.

Results

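The genes described here are 0610005C13Rik, Abcc6 and Uri1, which lie on mouse chromosome 7 together with Gys1, the gene of muscle glycogen synthase. The members were chosen by their liver intensities, since a probe set of each read lower in knockout than in wild-type liver, so the liver values are given as a description with no test. Every probe set that the platform annotation gives to these symbols was taken, which made 5 probe sets of 22626 and 3 genes of 12393 on the array. 0610005C13Rik (1434906_at) and Abcc6 (1421212_at) had a single probe set each. Uri1 had 3, called probe sets 1 (1419273_at), 2 (1419274_at) and 3 (1433913_at) below. The description "lower in knockout liver" held for 3 of the 5 probe sets and for only 1 of the 3 of Uri1.

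The arrays, 34 in all, came from 8 groups of mice. At 3 months of age, mice with a knockout of muscle glycogen synthase and wild-type mice gave anterior tibialis (4 and 4 arrays), medial gastrocnemius (3 and 5) and liver (4 and 4). At 8 months, medial gastrocnemius was taken from GSL30 mice, which the labels describe as overexpressing muscle glycogen synthase, and from wild-type mice (5 and 5). The labels give the strain as C57BL6/129SV for the tibialis arrays alone, name no promoter for the GSL30 line, and leave unstated if the arrays of a group are different animals, so p-values measure only the spread between arrays. Knockout and wild-type arrays differ in the disrupted Gys1 allele and in any chromosome 7 sequence inherited with it, and an effect of the lost synthase and an effect of linked sequence cannot be told apart with these groups. The GSL30 arrays served as a comparison in which, per the labels, the synthase was raised and not removed.

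Glycogen synthase adds glucose units to the growing glycogen chain. Gys1 encodes the form of muscle and most other tissues, and Gys2 encodes the form of liver. Abcc6 is an ATP-binding cassette transporter made mainly in hepatocytes; it is needed for the release of ATP into the liver circulation, from which pyrophosphate, an inhibitor of soft-tissue calcification, is formed. Its loss causes pseudoxanthoma elasticum in people, and in inbred mice the gene underlies Dyscalc1, a locus of strain-dependent dystrophic calcification. Uri1 encodes a prefoldin-like protein that binds the RNA polymerase subunit RPB5 (Polr2e) and works in the assembly of protein complexes with the R2TP chaperone. 0610005C13Rik is annotated as a long noncoding RNA, and no function is given for it here.

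All 3 genes sit on chromosome 7 with Gys1, at different distances in the gene order of the supplied table of 4162 chromosome 7 genes. 0610005C13Rik comes 9 genes after Gys1 with 8 genes between them, and Abcc6 comes 44 genes after it with 43 between. Uri1 comes 299 genes before Gys1, with 298 between, so the members lie on both sides of the disrupted gene.

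The promoter windows of 0610005C13Rik and Uri1, both with a probe set lower in knockout liver, are shown to let a reader compare them. Each is a window of 300 bases around the gene's start from RefSeq, mostly upstream of it, 5′ to 3′ on the minus strand of GRCm38.p6, at chr7:45575127-45575426 for 0610005C13Rik and chr7:38019503-38019802 for Uri1. Capitals mark matches, on either strand, to any of 6 motifs: the TATA box TATAAA, the CCAAT box, the GC box GGGCGG, the E-box CACGTG, the nuclear receptor motif AGGTCA and the hepatocyte nuclear factor motif GTTAAT.
0610005C13Rik: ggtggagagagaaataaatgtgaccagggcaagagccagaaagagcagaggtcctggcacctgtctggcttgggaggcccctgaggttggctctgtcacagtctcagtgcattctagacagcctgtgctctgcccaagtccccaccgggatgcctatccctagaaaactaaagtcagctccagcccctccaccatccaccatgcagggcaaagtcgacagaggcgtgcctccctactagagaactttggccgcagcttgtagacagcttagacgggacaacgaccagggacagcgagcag
Uri1: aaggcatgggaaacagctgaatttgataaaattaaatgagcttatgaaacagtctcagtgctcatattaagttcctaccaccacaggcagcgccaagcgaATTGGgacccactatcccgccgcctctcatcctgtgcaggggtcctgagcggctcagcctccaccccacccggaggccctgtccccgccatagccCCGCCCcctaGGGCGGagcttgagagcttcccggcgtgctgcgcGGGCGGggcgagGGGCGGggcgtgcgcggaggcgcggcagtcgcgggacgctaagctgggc
The 0610005C13Rik window held no match to any of the 6 motifs. The Uri1 window held 1 CCAAT and 4 GGGCGG matches, motifs present in 37.4% and 35.7% of 32851 promoter windows of the same length. TATAAA stood in 13.6% of those windows, AGGTCA in 16.3%, CACGTG in 7.15% and GTTAAT in 7.1%. The GC content was 57.3% for 0610005C13Rik and 64% for Uri1. These matches describe the letters only.

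Values are intensities as deposited, scaled by the authors so that arrays share nearly the same trimmed mean. Each difference was taken between group means of log2(value + 50), SE is its standard error from limma, and adjusted p is Benjamini-Hochberg over 13576 probe sets in each comparison. Array medians lay between 296 and 440, and at most 0.133% of values were identical in any pair of arrays within a group. The brighter Gys1 probe set averaged 9271 in wild-type and 50 in knockout tibialis and 5033 and 96.7 in 3-month gastrocnemius, the direction the labels give; in liver it was dim in both groups (56.8 and 37.8). It averaged 9115 in GSL30 and 6285 in wild-type gastrocnemius at 8 months. A wild-type 3-month gastrocnemius array, replicate 2, stood apart. Its mean correlation with its group was 0.923 against 0.947 to 0.959 for the other 4, and its highest intensity was 310986 against 49447 to 73305. The differences of 0610005C13Rik, Abcc6 and Uri1 probe set 3 between genotypes in that muscle are given with and without it, and counts over other genes with it. Liver arrays carried their defining markers: the summed intensity of 12 hepatocyte genes ran from 596457 to 763913 there, and that of 7 muscle fibre genes from 667 to 2390. In tibialis the muscle sum was 363400 to 425859 and the hepatocyte sum 2469 to 6204.

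In liver, 0610005C13Rik had the largest log2 difference of the members. Its intensity was 4711.6, 4733.3, 4718.5 and 4735.0 in the wild-type arrays against 758.6, 1085.8, 951.6 and 1079.9 in the knockout arrays. Every knockout array was below every wild-type array, and the wild-type arrays lay within a very narrow band. The means were 4725 ± 11.4 (SD, n = 4) in wild type and 969 ± 153 (SD, n = 4) in knockout, or 20.5% of wild type, a log2 difference of -2.24 (SE 0.13). In bulk tissue fewer cells of a type and less RNA per cell cannot be told apart. The summed hepatocyte markers overlapped between the genotypes (596457 to 763913 in knockout and 622524 to 690386 in wild type).

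Abcc6, the transporter, was also lower in knockout liver in every array. The wild-type livers gave 2356.5, 2252.7, 3269.6 and 2122.5 and the knockout livers 1138.3, 1164.2, 877.2 and 807.9. The groups did not overlap. The means were 2500 ± 522 and 997 ± 181 (SD, n = 4 each), so knockout liver held 39.9% of the wild-type level, a log2 difference of -1.28 (SE 0.17).

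Uri1 depended on the probe set. Probe set 3 read 887.7, 1499.3, 1497.7 and 1624.5 in wild-type liver and 232.1, 719.4, 418.9 and 305.1 in knockout liver. The groups did not overlap, and wild-type replicate 1 was the lowest of its group. Probe set 3 thus stood at 30.4% of the wild-type mean (419 ± 215 against 1377 ± 332, SD, n = 4 each), a log2 difference of -1.68 (SE 0.30). Probe set 1 averaged 1657 ± 181 in knockout and 1557 ± 141 in wild-type liver, a log2 difference of 0.08 (SE 0.12). Probe set 2 averaged 1628 ± 300 and 1415 ± 190, a log2 difference of 0.19 (SE 0.15). On both of these the groups overlapped, so the gene as a whole was not lower on all its probes. Probe sequences were not used here, and whether the probe sets read different transcripts or differ in their match to the alleles present was not tested.

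Across all 13576 probe sets of the liver comparison, 2.41% were lower in knockout with no overlap between groups, 0.383% were over 2-fold lower, and 0.00737% passed an adjusted p of 0.05. The 3 member probe sets that did not overlap were all over 2-fold lower, as the way they were chosen fixes, and nothing is read from that count. Gys2, the liver synthase, averaged 2686 ± 632 in knockout and 3527 ± 383 in wild-type liver (n = 4 each), a log2 difference of -0.41 (SE 0.18) that did not pass (limma adjusted p = 0.584).

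**Figure D1:**
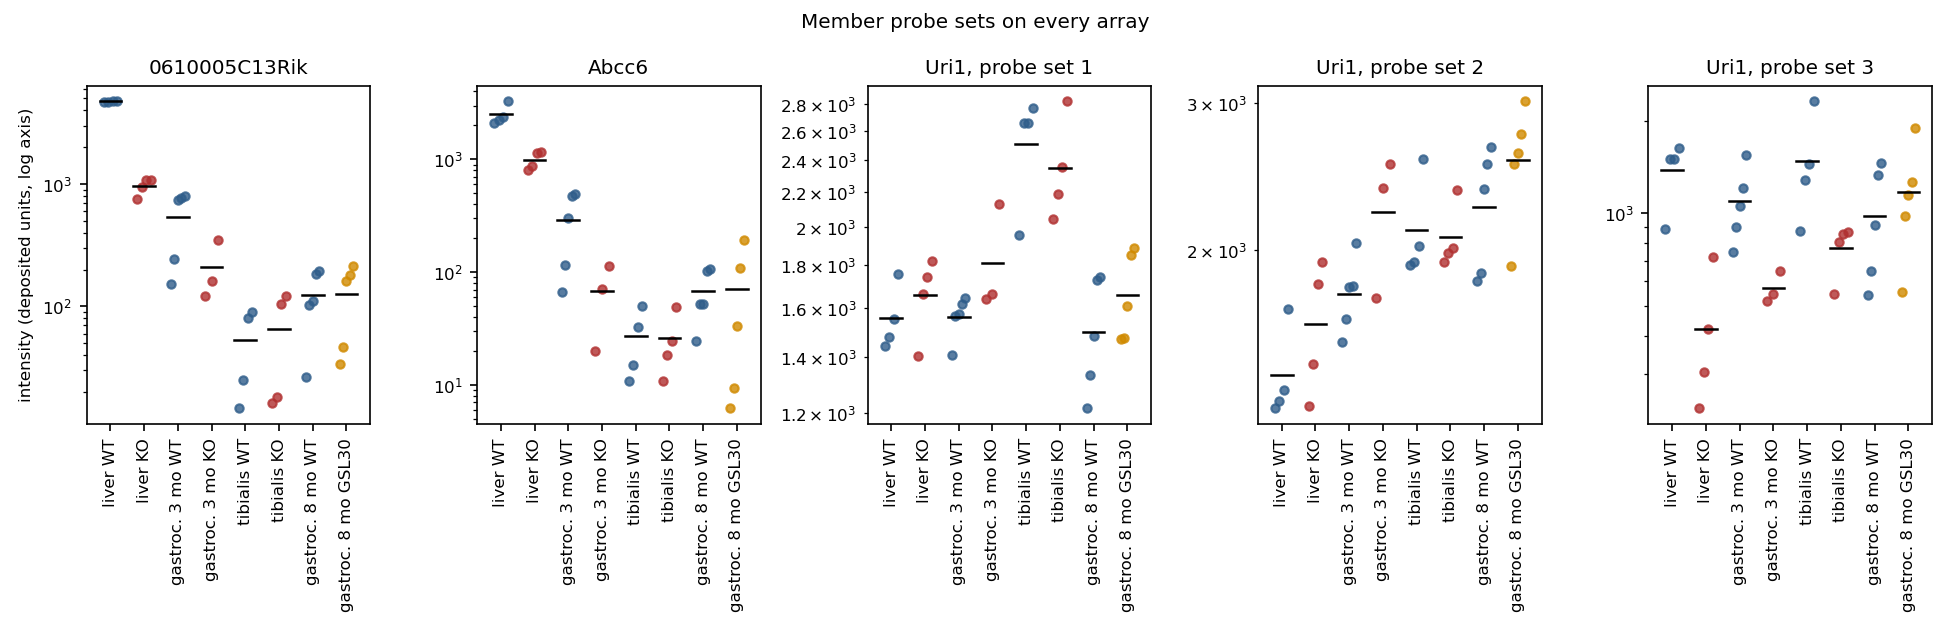
Intensity (log axis, a separate range in each panel) of the 5 probe sets on all 34 arrays by group; points are arrays, bars are group means, and blue, red and gold mark wild type, knockout and GSL30. 0610005C13Rik and Abcc6 are brightest in wild-type liver and dim in tibialis, and the knockout arrays of Uri1 probe set 3 lie below the wild-type arrays in liver and both muscles.

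The muscle arrays were not used to choose the members, and there the members could be tested. In tibialis, Uri1 probe set 3 read 2311.4, 1278.9, 877.6 and 1444.9 in wild type, compared with 858.2, 544.3, 807.6 and 866.7 in knockout. All 4 knockout arrays were below all 4 wild-type arrays, although the highest knockout array (866.7) lay just under the lowest wild-type array (877.6). The log2 difference was -0.84 (SE 0.27), which did not pass (limma adjusted p = 0.183); the exact two-sided permutation p was 0.0286, the smallest that 4 arrays against 4 can give. Of the members' 3 tested probe sets, 1 was lower without overlap and none passed the adjusted threshold in limma (1 had an unadjusted p under 0.05), where 4.88% of all tested probe sets were lower without overlap, 1.4% passed and 15% had an unadjusted p under 0.05.

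In 3-month gastrocnemius the same probe set read 1056.7, 749.8, 1211.6, 901.3 and 1549.0 in wild type, compared with 519.8, 647.6 and 544.2 in knockout. Again no knockout array reached the lowest wild-type array, which here was the array that stood apart. The log2 difference was -0.85 (SE 0.22) and did not pass (limma adjusted p = 0.261), with an exact two-sided permutation p of 0.0357, where 0.0179 is the smallest the design can give. Without that array the difference was -0.97 (SE 0.19, limma adjusted p = 0.137). Of the members' 4 tested probe sets, 1 was lower without overlap and none passed in limma (1 had an unadjusted p under 0.05), where 2.72% of all tested probe sets were lower without overlap, 0.147% passed and 11.4% had an unadjusted p under 0.05. Of 12 alternative settings, 10 kept the direction and did not pass, as in the main fit. The exceptions were array weights, with a difference of -0.96 (limma adjusted p = 0.0343), and a hepatocyte score as covariate, with -1.12 (limma adjusted p = 0.0355).

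Markers of other cell types moved with genotype in the muscles. The summed intensity of 5 endothelial genes, all on the array, was 10056 to 11702 in knockout and 6906 to 8421 in wild-type tibialis, 9038 to 10277 and 6388 to 7783 in 3-month gastrocnemius, and 6195 to 6976 in GSL30 against 9262 to 11179 in its wild type. None of these pairs overlapped, while in liver the sums did (2912 to 3512 and 3189 to 3533). The genes of that list did not move alike. Stab2 was lower in knockout tibialis (428 to 510 against 516 to 732) and gastrocnemius (591 to 764 against 821 to 1339), and Kdr overlapped in gastrocnemius (987 to 1587 and 999 to 1506). Cdh5 overlapped in tibialis and Tek in 3-month gastrocnemius. Between GSL30 and its wild type, Stab2, Kdr and Tek overlapped, and only Pecam1 and Cdh5 did not. The sum of 5 Kupffer cell genes was lower in knockout 3-month gastrocnemius (1942 to 2004 against 2250 to 3507). Of these genes only Adgre1 had no overlap there (691 to 779.8 against 929.5 to 1127.4), while Clec4f, Cd5l, Vsig4 and Cd68 each overlapped. In GSL30 the hepatocyte sum (9551 to 15916 against 16205 to 38992) and that of 2 erythroid genes (749.6 to 1000.4 against 1099 to 1304) were lower. Cyp2e1 had the largest mean of the hepatocyte genes (9145 in GSL30, 12001 in wild type) and overlapped (5817 to 11461 and 8553 to 16470). Apoa1, Apoc3, Fga, Fgb, Fgg, Hp and Cps1 overlapped too, while Alb, Apoa2, Ttr and Ahsg did not. Each erythroid gene alone overlapped. Alas2 read 449 to 946.7 in GSL30 and 914.4 to 1146.4 in wild type, and Hba-a1 read 53.7 to 300.9 and 59 to 354.3. The mean of Hba-a1 was not lower in GSL30 (190.9 against 180.2). The part of these transcripts in the Uri1 values was not tested, beyond the fit with the hepatocyte score.

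The effect of the knockout on probe set 3 in gastrocnemius minus that in tibialis was -0.01 (SE 0.37, limma adjusted p = 0.995), an estimate whose error is wide beside either effect. For probe sets 1 and 2 the difference of effects was 0.29 (SE 0.20) and 0.33 (SE 0.20), with limma adjusted p of 0.615 and 0.576. In that comparison 0.0147% of all probe sets passed, and none of the members did; none of these 3 had an unadjusted p under 0.05, against 10% of all.

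In GSL30 gastrocnemius, where Gys1 was raised, Uri1 probe set 3 read 1899.0, 1263.1, 982.5, 1148.8 and 553.4, and its wild-type arrays read 1459.0, 542.4, 649.8, 917.6 and 1333.2. The groups overlapped over most of their range. The log2 difference was 0.24 (SE 0.32, limma adjusted p = 0.697), and it took the opposite sign, -0.41 (SE 0.48, limma adjusted p = 0.705), with the hepatocyte score as covariate. That score, the mean log2 level of the hepatocyte genes, was 8.00 to 8.87 in GSL30 and 9.08 to 10.8 in wild type. It did not overlap between these groups, so the fit can hardly separate it from genotype. A sign or call that changed in that fit is therefore not read as due to liver transcripts. No member passed in GSL30 (limma; none of the 3 tested had an unadjusted p under 0.05), where 4.31% of all probe sets passed and 21.4% had an unadjusted p under 0.05. None was lower without overlap, against 3.59% of all.

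Probe sets 1 and 2 of Uri1 did not pass in any comparison of genotypes. In tibialis their log2 differences were -0.09 (SE 0.15, limma adjusted p = 0.807) and -0.02 (SE 0.13, limma adjusted p = 0.954). In 3-month gastrocnemius they were 0.20 (SE 0.13, limma adjusted p = 0.561) and 0.31 (SE 0.16, limma adjusted p = 0.489). The exact two-sided permutation p there was 0.0357 for probe set 1 and 0.125 for probe set 2. For probe set 1 this equals the value of probe set 3, but the difference was higher in knockout, with overlap. In GSL30 the differences were 0.15 (SE 0.14, limma adjusted p = 0.561) and 0.18 (SE 0.15, limma adjusted p = 0.512). Between wild-type muscles, probe set 1 was lower in gastrocnemius than in tibialis, at 1561 ± 92.6 (n = 5) against 2510 ± 372 (n = 4), a log2 difference of -0.66 (SE 0.13, limma adjusted p = 0.00551; -0.67 and 0.00680 without the array that stood apart). That comparison was broad, with 27% of all probe sets passing, 14.8% passing as lower in gastrocnemius, 24.8% without overlap and 15% lower without overlap. Probe sets 2 and 3 did not pass there (-0.24 and -0.38, limma adjusted p = 0.202 and 0.328).

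**Figure D2:**
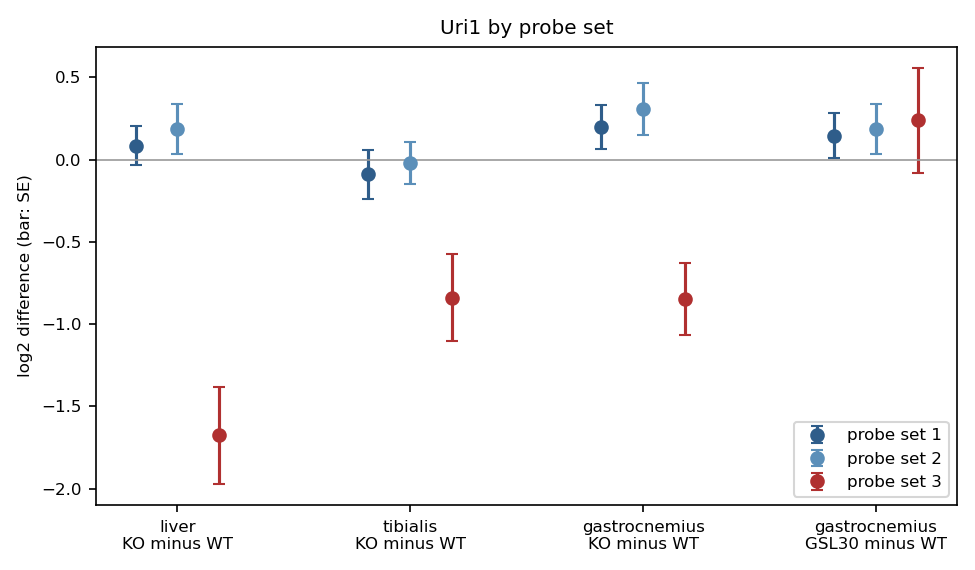
Log2 difference (y axis, log2(value + 50) scale) of each Uri1 probe set in each comparison, knockout or GSL30 minus wild type; bars are SE from limma. Probe set 3 lies at -1.68 in liver, -0.84 in tibialis and -0.85 in 3-month gastrocnemius and at 0.24 in GSL30, while probe sets 1 and 2 stay between -0.09 and 0.31.

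The probe sets of Uri1 were also set against each other within each array, as the log2 level of probe set 3 minus the mean of probe sets 1 and 2, a measure chosen after the values were seen. In 3-month gastrocnemius it was -1.61, -1.55 and -2.00 in knockout and -0.62, -1.03, -0.46, -0.79 and -0.20 in wild type. The groups did not overlap. The knockout mean was lower by a log2 difference of -1.10, with an exact two-sided permutation p of 0.0179, the smallest possible, and 0.0536 after Benjamini-Hochberg adjustment over the 3 comparisons tested. In tibialis it was -1.22, -1.80, -1.37 and -1.52 in knockout and -0.00, -0.59, -1.34 and -0.83 in wild type. There wild-type replicate 3 fell inside the knockout range and the difference was -0.78 (exact permutation p = 0.0571, adjusted 0.0857). In GSL30 the difference was 0.07 (exact permutation p = 0.889, adjusted 0.889), and in liver, where it is a description, -1.81. Leaving out 1 array at a time gave -0.96 to -1.20 in gastrocnemius, with no overlap each time, and -0.55 to -1.0 in tibialis.

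The levels of 0610005C13Rik and Abcc6 were low in tibialis whatever the genotype. 0610005C13Rik read 25.1, 90.1, 14.7 and 80.8 in wild type, compared with 16.1, 18.3, 121.0 and 105.5 in knockout tibialis, with an exact two-sided permutation p of 0.629. Abcc6 read 32.6, 10.9, 15.0 and 50.5 in wild type, compared with 24.7, 18.5, 10.9 and 49.4 in knockout (exact permutation p = 0.943). The groups overlapped for both genes, and both were too dim for the fit, so a change in tibialis was not detectable at this signal.

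In 8-month gastrocnemius the same held. 0610005C13Rik read 212.8, 33.5, 161.0, 180.5 and 46.3 in GSL30 and 110.6, 182.4, 26.7, 194.8 and 103.1 in wild type (exact permutation p = 0.976). Abcc6 read 192.7, 9.3, 33.4, 6.2 and 109.8 in GSL30 and 24.7, 101.4, 52.4, 107.1 and 51.7 in wild type (exact permutation p = 0.730). Neither gene separated the groups.

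The 3-month gastrocnemius arrays were brighter for both genes. 0610005C13Rik read 736.5, 764.8, 245.6, 804.1 and 151.4 in wild type, compared with 348.6, 162.4 and 120.7 in knockout. The 2 dimmest wild-type arrays lay within the knockout range, and the log2 difference of -1.05 (SE 0.53) did not pass (limma adjusted p = 0.484; -0.88 and 0.551 without the array that stood apart). With the hepatocyte score as covariate the difference was -0.26 (SE 0.21, limma adjusted p = 0.741). Abcc6, under the brightness filter, read 300, 475.7, 115.1, 491.9 and 66.9 in wild type, compared with 112.3, 70.2 and 19.8 in knockout, overlapping, with a log2 difference of -1.37 (exact permutation p = 0.0893; -1.15 and 0.229 without that array). Without the arrays over a liver percent of 10, a measure described next, the Abcc6 difference was -0.33 (exact permutation p = 0.6). Without those over 5 it was -0.35, with 1 wild-type and 2 knockout arrays left. Neither limit kept enough arrays for an exact permutation p under 0.05, so nothing is read from the test.

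Those arrays carried liver transcripts in unequal amounts, and the values of both genes moved with them. A liver percent was computed for each array as the median, over 470 probe sets with a mean of 1000 or more in wild-type liver and 20 times their tibialis mean or more, of the array's intensity relative to that liver mean. Among gastrocnemius arrays it was 17.8, 25.5, 5.67, 26.9 and 3.03% in wild type against 8.27, 3.82 and 2.96% in knockout. It was 0.888 to 1.38% in tibialis and 1.13 to 2.69% at 8 months. All 12 hepatocyte markers were on the array, and their summed intensity ran from 59551 to 819738 in wild-type and 55898 to 184453 in knockout gastrocnemius; the highest sum came from the array that stood apart. Across the 8 arrays the liver percent went with 0610005C13Rik (Pearson r = 0.976, Spearman rho = 1) and with Abcc6 (r = 0.994, rho = 0.976), given as a description of arrays that share their liver content. Without the 2 arrays farthest from the median r was 0.999 and 0.976 (n = 6). The part of liver transcripts in the genotype differences was not tested beyond the measures that follow, and liver RNA in a muscle sample and expression by muscle cannot be told apart here.

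**Figure D3:**
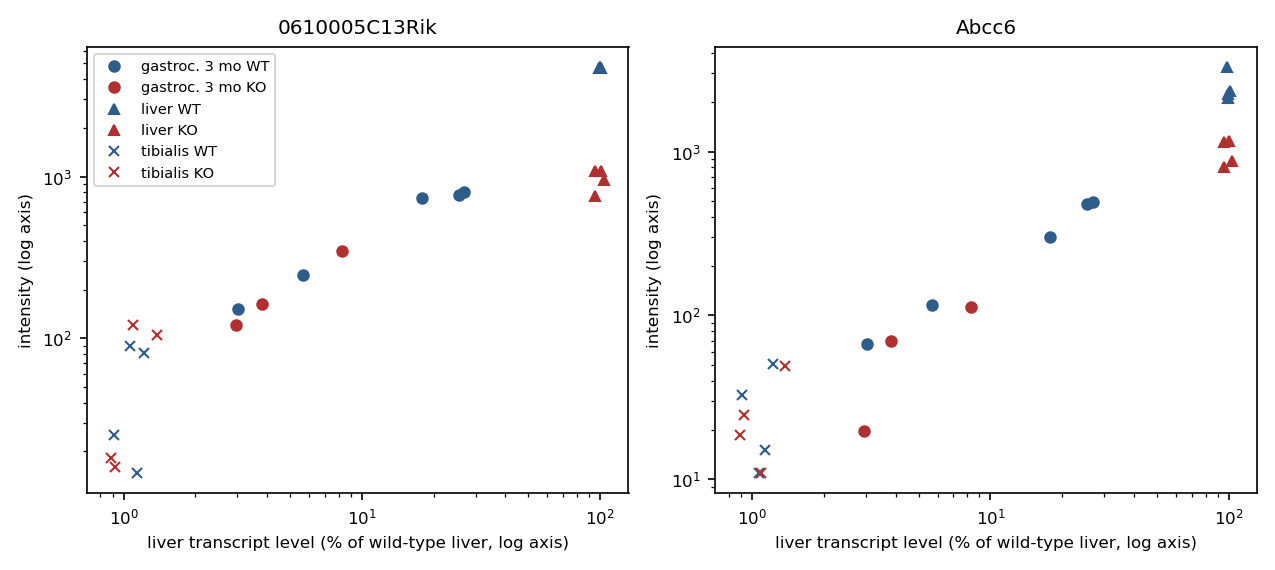
Intensity (y, log axis) of 0610005C13Rik and Abcc6 against the liver percent of each array (x, log axis), with circles for 3-month gastrocnemius, triangles for liver and crosses for tibialis, blue for wild type and red for knockout. In gastrocnemius both genes climb with the liver percent from 2.96 to 26.9, while liver arrays at a liver percent of 95.3 to 104 split by genotype.

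The level of each gene per liver percent, after the wild-type tibialis mean was subtracted from both, was computed after the values were seen. For 0610005C13Rik it was 38.4 ± 9.33 (SD, n = 5) in wild-type and 39.2 ± 2.54 (SD, n = 3) in knockout gastrocnemius, against 47.4 ± 0.479 in wild-type and 9.39 ± 1.56 in knockout liver (n = 4 each). The gastrocnemius groups overlapped and did not differ beyond their spread (exact two-sided permutation p = 0.946, and 0.743 without the array that stood apart). The knockout gastrocnemius arrays lay at 36.3 to 41.2 and the knockout liver arrays at 7.49 to 10.9. The low place of the knockout liver arrays follows from the choice of members, and the reason for the gap was not tested.

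For Abcc6 the level per liver percent was 16.3, 18.4, 19.2, 17.98 and 20.4 in wild-type gastrocnemius and 11.8, 15.7 and -3.98 in knockout gastrocnemius. All knockout arrays were lower, with means of 18.5 ± 1.52 (n = 5) and 7.85 ± 10.4 (n = 3) and an exact two-sided permutation p of 0.0179, the smallest possible (0.0286, again the smallest possible, without the array that stood apart). Wild-type liver stood at 25.1 ± 5.45 and knockout liver at 9.96 ± 1.93 (n = 4 each). The negative value came from knockout replicate 3, whose Abcc6 intensity was below the tibialis mean and whose liver percent was the lowest of the 8; without it the difference was -4.69 (exact permutation p = 0.0476, the smallest that 2 arrays against 5 can give). The measure was first computed without subtracting the tibialis mean from the liver percent. That form gave 32.2 ± 4.45 and 29.2 ± 6.40 for 0610005C13Rik (exact permutation p = 0.464) and 15.8 ± 1.79 and 6.33 ± 7.68 for Abcc6 (exact permutation p = 0.0179) in wild type and knockout. These 4 p-values are unadjusted. Abcc6 was under the brightness filter in these arrays. Its knockout intensities of 19.8 to 112.3 lay near the 10.9 to 50.5 of wild-type tibialis, and the knockout liver percents were only 2.96 to 8.27. A small error in so dim a signal becomes a large one per liver percent, so no genotype difference is read from the Abcc6 measure.

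Ordered by group mean, 0610005C13Rik ran from wild-type liver (4725) through knockout liver (969), 3-month wild-type gastrocnemius (540) and knockout gastrocnemius (211) to the 8-month groups (127 and 124) and tibialis (65.2 in knockout and 52.7 in wild type). Only the first step, between wild-type and knockout liver, had no overlap. Abcc6 followed a similar order, from 2500 in wild-type liver and 997 in knockout liver to 290 in 3-month wild-type gastrocnemius, with no overlap between those groups; the other 5 groups, from 70.3 to 25.9, overlapped their neighbours. Between wild-type muscles, both genes were higher in 3-month gastrocnemius than in tibialis without overlap (exact permutation p = 0.0159 for each, and 0.0286 for each without the array that stood apart), in arrays whose liver percent was also higher. For Uri1 probe set 3 the 3 lowest groups were the knockout groups, at 769 in tibialis, 571 in gastrocnemius and 419 in liver, below a range of 980 to 1478 in the other 5. Neighbouring groups overlapped at each step.

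The genes around Gys1 give the setting of the members. Within 50 measured genes on each side of Gys1, members and Gys1 aside, 9.52% of probe sets had no overlap between genotypes in liver, 13.9% in tibialis, 17.2% in 3-month gastrocnemius and 5.19% in GSL30. Over all tested probe sets the shares were 5.17%, 10.1%, 9.98% and 7.38%. The median log2 difference of the window genes was 0.02 in liver, 0.03 in tibialis, 0.09 in gastrocnemius and 0.10 in GSL30, against 0.02, 0.04, 0.05 and 0.03 over all tested. No window probe set passed in liver or gastrocnemius (limma), where 0.00737% and 0.147% of all tested probe sets passed and 8.33% and 11.4% had an unadjusted p under 0.05. With all 34 arrays in 1 fit 2 passed in liver and 6 in gastrocnemius. Over all of chromosome 7, members and Gys1 aside, 3 probe sets were over 2-fold lower in knockout liver, down to -1.51, and 2 were over 2-fold higher. In tibialis 4 of 137 passed, 3 lower and 1 higher, against 1.4% of all tested, and in GSL30 4 of 135 passed, 1 lower and 3 higher, against 4.31% of all. With the hepatocyte score as covariate 0 of the 4 GSL30 calls were left, but the score itself split those groups without overlap, so nothing is read from that loss.

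Those called in tibialis were Nomo1, a membrane protein of the endoplasmic reticulum (-0.64, limma adjusted p = 0.0147), the arginine methyltransferase Prmt3 (-0.51, limma adjusted p = 0.0492), the selenoprotein Selenos (-0.76, limma adjusted p = 0.0187) and Nav2, a neuron navigator (0.89, limma adjusted p = 0.00953). Those called in GSL30 were the myosin Myh14 (0.66, limma adjusted p = 0.0162), the potassium channel Kcna7 (0.88, limma adjusted p = 0.00419), Nomo1 (0.48, limma adjusted p = 0.0225) and the tight junction protein Tjp1 (-0.62, limma adjusted p = 0.0360). Nomo1 is the nearest measured gene to Abcc6 on the far side from Gys1, and the same probe set was lower in knockout tibialis and higher in GSL30 gastrocnemius. In liver it averaged 1699 ± 131 in knockout and 1810 ± 145 in wild type, overlapping, while the dimmer Nomo1 probe set had no overlap (-0.54, limma adjusted p = 0.256). The tibialis count was not stable. It ran from 1 to 7 when 1 array was left out.

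The nearest measured neighbours varied in liver, and none passed; the dimmer Nomo1 probe set, above, was lower without overlap. Bcat2, an enzyme of branched-chain amino acid breakdown and the next measured gene after 0610005C13Rik, was higher in knockout liver, at 657 ± 148 against 338 ± 100 (n = 4 each), a log2 difference of 0.87 (SE 0.20, limma adjusted p = 0.293) without overlap. It also had no overlap in gastrocnemius (0.70, limma adjusted p = 0.313), and its difference was 0.03 in tibialis. Plekha4, on the other side of 0610005C13Rik, overlapped between genotypes in liver on both of its probe sets (0.26 and 0.15). Emp3, before Abcc6, overlapped too (-0.17). Beside Uri1, Nudt19 differed by 0.13 and -0.07 in liver, overlapping, and 1600014C10Rik by 1.06 (no overlap, limma adjusted p = 0.256) and 0.35 (overlapping).

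**Figure D4:**
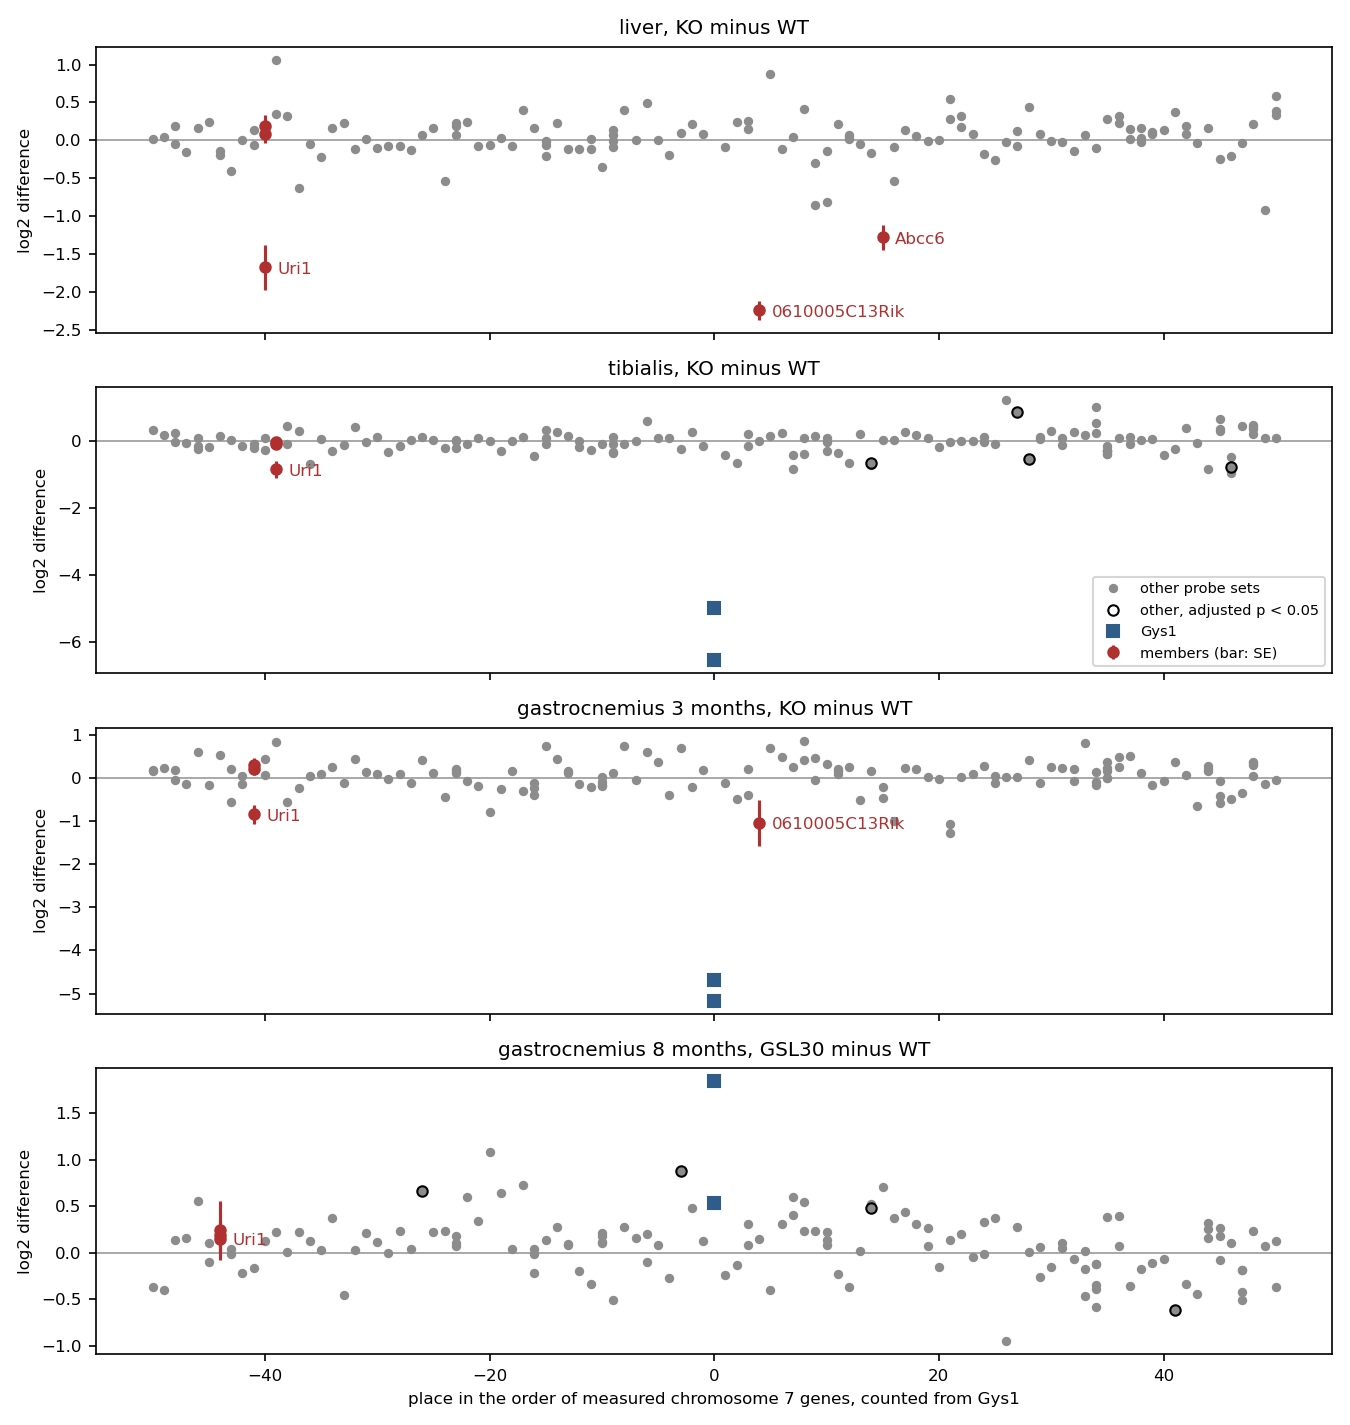
Log2 difference of every tested probe set within 50 measured genes of Gys1 (x axis, steps in the order of measured chromosome 7 genes) in the 4 comparisons; red marks the members with SE bars, blue squares Gys1, grey the other genes and open circles those with an adjusted p under 0.05. In liver the members lie at -2.24, -1.28 and -1.68, a low place that the way they were chosen fixes. Every other probe set lies between -0.91 and 1.06, the 2 other Uri1 probe sets among them at 0.08 and 0.19.

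The other genes of the window with the largest non-overlapping differences did not pass. In liver they included Sphk2, a sphingosine kinase (-0.81, limma adjusted p = 0.358), and Pop4, a subunit of the RNase P and RNase MRP ribonucleoproteins (-0.62, limma adjusted p = 0.256). In gastrocnemius they included Plekhf1 (0.83, limma adjusted p = 0.0643) and Ptov1 (-0.80, limma adjusted p = 0.302), and in tibialis Csrp3, a muscle LIM protein (1.23, limma adjusted p = 0.0541).

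Pop4 also had the pattern most like Uri1 probe set 3. After each array was centred on the mean of its tissue and age set, its Pearson correlation with probe set 3 over 34 arrays was 0.68, the highest of 13576 probe sets, followed by Tmed4 at 0.66, Prune1 at 0.64, Slc25a20 at 0.64 and Map1lc3a at 0.63. These correlations include the liver arrays that chose the members and the muscle arrays of each genotype, and are a description. A probe set picked this way tends to share the genotype differences of probe set 3. The values of the alike genes below, in liver or muscle, are therefore no separate test. Pop4 lies near Uri1 on chromosome 7, and the other 4 lie on other chromosomes. Its knockout and wild-type means were 384 ± 56.0 and 616 ± 56.1 in liver, 307 ± 53.9 and 517 ± 94.3 in tibialis, and 347 ± 57.3 and 537 ± 77.0 in gastrocnemius, with no overlap in any of the 3. The log2 differences in tibialis and gastrocnemius were -0.67 (limma adjusted p = 0.0835) and -0.56 (limma adjusted p = 0.284), and in GSL30 the difference was -0.16 with overlap. For 0610005C13Rik the most alike were Apoa4 (0.75), Retsat (0.75), Inhbe (0.74) and Vnn1 (0.72), none on chromosome 7. Apoa4, a plasma apolipoprotein, averaged 6615 ± 3499 in knockout and 21708 ± 7733 in wild-type liver (limma adjusted p = 0.386). For Uri1 probe set 1 the closest was Zranb1 (0.72), and for probe set 2 Zfp316 (0.75). Abcc6 was too dim over the 34 arrays to be ranked.

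Partners of Uri1 did not pass in any comparison. Of 15 genes of the URI1 and R2TP prefoldin-like complex 13 were on the array and tested, and in limma 0 probe sets passed in each of the 4 comparisons. In tibialis, on the brightest probe set of each, 13 of 13 had a negative difference, with a median of -0.11 for the 12 other than Uri1 against 0.04 over all tested. In gastrocnemius 1 of 13 was negative and the median was 0.16 against 0.05. In liver 7 of 13 were negative (median -0.00 against 0.02), and in GSL30 3 of 13 (0.12 against 0.03). The smallest unadjusted p in tibialis after Uri1 was that of the prefoldin subunit Pfdn6 (-0.21, limma adjusted p = 0.378). In gastrocnemius it was Pih1d1, an R2TP subunit that itself lies in the window around Gys1 (0.75, limma adjusted p = 0.199).

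Of 11 genes of the ABCC transporter family 9 were on the array, and none of the 5 others tested in liver passed in limma (adjusted p of 0.619 or more). Abcc5, an organic anion and nucleotide transporter, passed as higher in knockout tibialis on 1 of its 5 probe sets (2111 ± 139 against 1399 ± 112, n = 4 each, log2 difference 0.58, SE 0.11, limma adjusted p = 0.0332). Its 4 other probe sets there differed by 0.11 to 0.53 and did not pass. Of 15 genes of pyrophosphate and calcification 13 were on the array. Apart from Abcc6, Entpd5, a nucleoside diphosphatase, had the smallest p in liver, at 6114 ± 1259 in knockout and 9664 ± 938 in wild type (log2 difference -0.67, SE 0.16), and did not pass (limma adjusted p = 0.293). Ank, a transporter that governs extracellular pyrophosphate, passed as lower in GSL30 gastrocnemius, at 4563 ± 269 against 6534 ± 179 (n = 5 each, log2 difference -0.51, SE 0.10, limma adjusted p = 0.0163). With the hepatocyte score as covariate 0 probe sets passed in that comparison. Because the score split those groups without overlap, that fit is not read for Ank. No other probe set of these lists passed in the 4 comparisons.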

How the data were processed

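RNA from mouse tibialis, gastrocnemius and liver was hybridised to 34 Affymetrix arrays. Per the labels' protocols it was extracted with TRIzol and an RNeasy kit. The deposited values are intensity on a linear scale, and for the probe summary method the sources used here name no software. Array means trimmed by 2% at either end were 987 to 996, so the authors' values share a common scale. The 64 control probe sets were left out and values below 0 set to 0. Of the rest, 20380 had 1 gene symbol, 691 several and 1555 none.

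The tests used lmFit and eBayes of limma (version 3.58.1, under R 4.3.3, tables read with version 1.17.8 of the data.table package). A separate model for every comparison took only the arrays compared, as log2(value + 50), without probe sets under the 40th percentile. Adjusted p is Benjamini-Hochberg over 13576 probe sets, with a threshold of 0.05. Member probe sets under the filter were compared by exact two-sided permutation. Array number limits precision. On simulated data 2-fold changes were recovered in 79.8, 66.7, 77.9 and 78.9% of cases for tibialis, 3-month gastrocnemius, liver and 8-month gastrocnemius, and 4-fold changes in 97.8, 93.8, 98.9 and 100%. The simulation planted 200 changed probe sets with independent noise and left out the unequal liver transcripts. An adjusted p depends on how many probe sets change, and the real fits called 1 in liver and 20 in 3-month gastrocnemius. The shares thus hold for the simulated setting and can overstate recovery in the real arrays.

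Named genes were the members, Gys1, Gys2, nearest measured neighbours, window genes called or the 5 largest without overlap, list members called or up to 3 of smallest p, and the 5 probe sets most alike. Members and lists were chosen with earlier results of these data known. Alternatives were quantile and median scaling, pseudocounts of 1 and 200, no filter or the 60th percentile, all arrays in 1 fit, trended robust eBayes, array weights, a hepatocyte score (12 genes), windows of 25 and 100 genes, and each array left out. After values were seen, arrays over a liver percent of 5 were left out; because that kept 1 wild-type and 2 knockout arrays, a limit of 10 was added, and both are reported. The Uri1 comparison within arrays and the levels per liver percent were also added then.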

Additional observations from a re-analysis of the deposited data

Results flagged for a closer look

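Each of the 5 probe sets was checked in every group of 4 or 5 arrays, which made 35 checks that share the same arrays. In 4 of them an array's gap to its nearest neighbour took up most of the group's range, where chance gives about 1 in 20. In wild-type tibialis, Uri1 probe set 1 read 1957.3 in replicate 2, below the next array at 2654.9, and probe set 2 read 2573.3 in replicate 4, above the next at 2023.9. In knockout tibialis, probe set 2 read 2358.2 in replicate 4, with the next at 2007.8. In wild-type liver, probe set 2 read 1696.7 in replicate 2, with the next at 1357.3. No array of probe set 3, 0610005C13Rik or Abcc6 stood out in this way.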

How the results depend on the processing

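No paired analysis was possible because the labels give no replicate numbers shared between groups. Of all recomputed values, 560 were labelled the same, 93 moved, 30 reversed and 2 became stronger. A count was the same if it stayed within a set fold of the main count. A liver difference of a member was the same if it shifted by less than its residual SD. Any other difference was the same if it kept its direction and side of the threshold. Where values changed, the cause was not tested. With an array left out the liver differences, whose sign the choice of members fixes, were -2.30 to -2.13 for 0610005C13Rik, -1.36 to -1.15 for Abcc6 and -1.95 to -1.47 for Uri1 probe set 3. Signal limits 0610005C13Rik and Abcc6 in tibialis and 8-month muscle.

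Probe sets past the threshold in tibialis numbered 190, and 96 without a filter, 288 with the 60th percentile, 291 with all arrays in 1 fit, 321 trended, 335 with array weights and 63 to 300 with an array left out. In 3-month gastrocnemius the 20 became 10 with a common median, 7 without a filter, 306 with all arrays, 139 with weights, 1 and 4 without arrays over a liver percent of 10 and 5, and 7 to 25 with an array left out. In liver the 1 became 2 with a common median, 3 with a pseudocount of 200, trended or weighted, 32 with all arrays and 1 to 8. At 8 months the 585 became 382 with a common median, 259 without a filter, 1093 with all arrays, 0 with the hepatocyte score as covariate and 182 to 772. The score did not overlap between the 8-month groups, so its fit there can hardly separate it from genotype. For the difference between muscles the 2 became 0 with a common median or no filter, 1 and 6 with pseudocounts of 1 and 200, 5 with the 60th percentile, 6 trended, 16 weighted and 0 to 7.

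Around Gys1 the 4 of tibialis became 2 without a filter, 8 with the 60th percentile, 9 with all arrays, 7 trended or weighted, 1 and 7 in windows of 25 and 100 genes, and 1 to 7. The 0 of gastrocnemius became 1 with quantile scaling, a pseudocount of 200, the 60th percentile or trended, 6 with all arrays and 4 weighted, and stayed 0 with each array left out; the 0 of liver became 2 with all arrays. The 4 at 8 months became 2 without a filter, 8 with the 60th percentile or all arrays, 0 with the covariate, 2 and 9 in windows of 25 and 100 genes, and 2 to 7.

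Uri1 probe set 3 in gastrocnemius was -0.96 weighted and -1.12 with the covariate, past the threshold (limma adjusted p = 0.0343 and 0.0355), and did not pass in 10 of 12 settings. It was -1.20 without arrays over a liver percent of 10 (limma adjusted p = 0.242) and -1.31 without those over 5. With an array left out it was -0.97 to -0.72 there and -1.05 to -0.60 in tibialis. Its 8-month value reversed to -0.41 with the covariate, and its difference between muscles to 0.017 (quantile scaling), 0.020 (pseudocount of 200) and 0.15 (common median), and ran from -0.24 to 0.21 with an array left out. 0610005C13Rik at 8 months was 0.0035 with a pseudocount of 200 and -0.28 to 0.22 with an array left out. Such ranges also crossed 0 for Abcc6 at 8 months (-0.47 to 0.057) and, in tibialis, for 0610005C13Rik (-0.13 to 0.33), Abcc6 (-0.16 to 0.11) and Uri1 probe set 2 (-0.084 to 0.075).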
